A study of Homo sapiens with 36 samples.

Results

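PANC-1 cells given 1E5 were compared with PANC-1 cells given GW3965, 3 libraries against 3. These 6 libraries are 6 of the 36 in the series, picked by the line and the ligand that the labels give. PANC-1 is an established line of human pancreatic ductal adenocarcinoma, and both groups were grown in DMEM with 10% fetal bovine serum and treated at 10 µM for 48 h. GW3965 is a synthetic agonist of the liver X receptors. 1E5 is known here only by its code name, and the labels call it an inverse agonist of the same receptors. The third PANC-1 group used here had the vehicle DMSO and 3 libraries, and it gave the baseline that tells which ligand moved a gene. Another PANC-1 group, 3 libraries given 3A4, which the labels also call an inverse agonist, entered the fit and its estimate of the spread but is not compared here. RNA was sequenced as stranded total RNA, and the deposited values are whole-number counts per gene. The titles call the libraries biological replicates without saying whether they were separate cultures, so the p-values speak only of the variation among these libraries, which may be technical.

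The liver X receptors, LXRα (NR1H3) and LXRβ (NR1H2), are nuclear receptors for oxysterols that bind DNA as partners of the retinoid X receptors. An agonist turns on cholesterol export (ABCA1, ABCG1), phospholipid remodelling (LPCAT3) and SREBF1, whose product SREBP-1c drives fatty acid synthesis and desaturation. An inverse agonist favours corepressor binding and lowers transcription of target genes below the unliganded level. Cells under stress can also use the integrated stress response, in which ATF4 drives genes of amino acid supply, and the unfolded protein response of the endoplasmic reticulum (ER), which raises chaperones such as HSPA5.

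The 6 libraries held between 23800116 and 26026684 counts each. Keratin genes that mark ductal carcinoma were measured in all 12 PANC-1 libraries, with KRT8 between 280 and 2560 CPM, in counts per 1e+06 of the scaled library total. KRT7, another ductal keratin, was low, at 3.77 to 8.01 CPM. CD3E of T lymphocytes, DCN and LUM of fibroblasts, PECAM1 of endothelium and CPA1, INS and SST of acinar and islet cells were at 0 counts in all 12. CD14 of monocytes (0.155 to 4.15 CPM), COL3A1 (0.199 to 11.8 CPM), PDGFRB (0.319 to 2.09 CPM) and ACTA2 (1.75 to 3.86 CPM) of fibroblasts were detected in all 12. ITGAM of leukocytes was at 0 in 1 library and reached 4.02 CPM. Among endothelial genes, TIE1 and KDR were at 0 in 8 libraries and reached 1.07 and 0.861 CPM. VWF and CDH5 were at 0 in 10. TIE1 had a mean of 0.686 CPM with 1E5 and 0 with GW3965. The acinar and islet genes PRSS1, CELA3A, CTRB1 and GCG reached at most 0.122 CPM. CD68, a lysosomal protein of macrophages that other cells also make, was higher in 1E5 (mean 57.2 against 14.7 CPM), while PTPRC, the general leukocyte marker, was at 0 in 11 of 12 libraries. COL1A1 was lower in 1E5 (mean 7.61 against 97.9 CPM), while its partner chain COL1A2 was at 0 in 11 libraries. The part of these genes in other results was not tested. In bulk RNA, fewer cells of a type and less RNA per cell cannot be told apart.

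1E5 replicate 2 stood apart from the other 1E5 libraries. The chi-square per degree of freedom between replicates was 155 for 1E5 replicates 1 and 2 and 107 for replicates 2 and 3, against 17.1 to 42.7 for every other pair of PANC-1 replicates. Mitochondrially encoded genes took 6.59% of its counts, against 2.69% and 3.91% in 1E5 replicates 1 and 3, 6.14% to 7.36% with GW3965 and 6.0% to 7.23% with DMSO. The 20 most abundant genes took 16.3% of its counts against 9.91% and 11.0%. Results that rest on it are therefore also given without it.

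Across 18544 genes tested, 6439 differed between 1E5 and GW3965 (34.7%, edgeR quasi-likelihood test, two-sided, Benjamini-Hochberg adjusted p under 0.05). Of these, 3231 were higher with 1E5 (17.4%) and 3208 were lower (17.3%). A difference of at least 2-fold was called for 2896 genes (15.6%), and the libraries of the ligands did not overlap at 8698 genes (46.9%). The median log2 difference over all genes tested was 0.01. The genes just inside the threshold were ZNF347 (-0.81) and HOXB5 (-0.52), both with an adjusted p of 0.0499. The first outside was AC090229.1 (-5.71), followed by ANAPC16 (0.25), both with an adjusted p of 0.05 after rounding. Without 1E5 replicate 2, 6983 genes were called, and 5644 were called both ways. A fit without the 3A4 libraries also happened to call 5644 genes, 2850 higher and 2794 lower.

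Against DMSO, the ligands moved very different numbers of genes. With 1E5, 7248 genes differed from DMSO (39.1%), 3660 higher (19.7%) and 3588 lower (19.3%). With GW3965, 9 genes did (0.0485%), 8 higher (0.0431%) and 1 lower (0.00539%), which were ABCA1, ABCG1, MYLIP, LPCAT3, ACLY, FDPS, ME1, S100P and TMEM263. Both comparisons use the same DMSO libraries, so their values are set side by side and were not correlated. A gene called between the ligands was termed opposed where 1E5 moved it at least 0.5 (log2) one way from DMSO and GW3965 at least 0.5 the other way. It was termed moved by 1E5 alone where 1E5 moved it at least 0.5 and GW3965 less than 0.5. That term also required a call between 1E5 and DMSO. GW3965 alone meant at least 0.5 with GW3965 and less than 0.5 with 1E5. The terms other than 1E5 alone required no call against DMSO. They rest on the size of the fold, since 3 libraries a group called few genes for GW3965. A fold under 0.5 is not shown to be 0.

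At the limit of 0.5, most called genes were moved by 1E5 alone. That pattern held 4770 of the 6439 called genes (74.1%), 2268 higher and 2502 lower in 1E5. The opposed pattern held 233 genes (3.62% of the called and 1.26% of the tested), 128 higher and 105 lower in 1E5. Both ligands moved 333 genes the same way from DMSO (5.17%), 226 of them further up with 1E5 or less far down. GW3965 alone moved 52 (0.808%), and 1051 (16.3%) met no term. At a limit of 1, 1E5 alone held 2824 genes and 3427 met no term. Among the 105 opposed genes lower in 1E5, 3 were also called between GW3965 and DMSO, namely LPCAT3, ACLY and FDPS. Among the 128 opposed genes higher in 1E5, 0 were called between GW3965 and DMSO. Without 1E5 replicate 2 the opposed pattern held 223 genes, 175 of them shared.

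**Figure D1:**
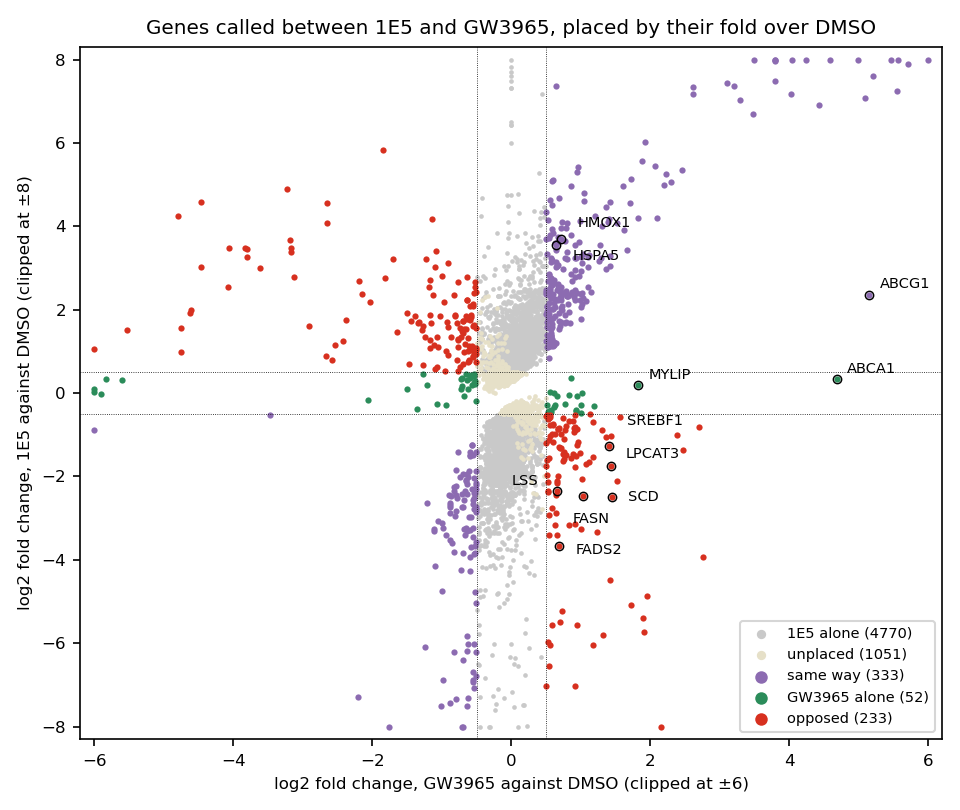
Genes called between 1E5 and GW3965, by log2 fold change of GW3965 against DMSO (horizontal, clipped at 6 in size) and of 1E5 against DMSO (vertical, clipped at 8 in size). Colours give the patterns, dotted lines mark 0.5 in each direction, and the 4770 genes in grey, moved by 1E5 alone, form a tall column around a GW3965 fold of 0, while LPCAT3, SCD, FASN, SREBF1, FADS2 and LSS lie at the lower right. Both axes share the DMSO libraries.

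The sequences before the start sites of HSPA5 and KIF11 are shown first because each carries letters that recurred in the list it belongs to. They are from RefSeq (GRCh38.p14), 250 bases that end at the base before the start, 5′ to 3′ on the strand of the gene, with the matched letters in capitals. For HSPA5, the ER chaperone BiP, chr9:125241344-125241593 (minus strand) held the ER stress element ERSE (CCAAT, then 9 bases of any kind, then CCACG) 66 bases before the start. For KIF11, a mitotic kinesin, chr10:92592880-92593129 (plus strand) held the letters of the cell cycle homology region CHR, TTTGAA, on the opposite strand 28 bases before the start.
HSPA5: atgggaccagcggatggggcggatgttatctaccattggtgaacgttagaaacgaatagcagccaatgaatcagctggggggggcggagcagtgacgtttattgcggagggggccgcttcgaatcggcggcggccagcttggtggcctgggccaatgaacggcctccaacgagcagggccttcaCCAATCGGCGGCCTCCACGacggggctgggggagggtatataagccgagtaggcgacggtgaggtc
KIF11: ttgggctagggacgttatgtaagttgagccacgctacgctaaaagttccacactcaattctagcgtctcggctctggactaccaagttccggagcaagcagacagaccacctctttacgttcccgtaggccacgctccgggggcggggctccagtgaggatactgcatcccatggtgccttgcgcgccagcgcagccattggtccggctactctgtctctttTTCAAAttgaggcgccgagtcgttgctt

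These letters were counted on both strands in windows of 300 bases, 250 before and 50 after each start, and 11978 of the 18544 genes tested had such a window. CCAAT, which is also a part of ERSE, was found in 42.3% of those genes and in 34.6% of all 35116 windows. It was found in 17 of 21 genes of cholesterol synthesis with a window (81.0%) and in 12 of 17 of fatty acid synthesis (70.6%). It was also found in other lists, with 19 of 20 ER genes (95%), 17 of 20 mitosis genes (85.0%), 18 of 26 of the integrated stress response (69.2%) and 18 of 29 DNA replication genes (62.1%). CARE letters of amino acid response genes, TGATGNAA, were found in 11 of 18 genes of amino acid transport and tRNA charging (61.1%) and in 5 of 26 of the integrated stress response (19.2%), against 2.73% of tested genes. ERSE letters were found in 7 of 20 ER genes (35.0%) against 0.134%. CHR letters were found in 14 of 20 mitosis genes (70.0%) and in 1 of 29 DNA replication genes (3.45%), against 13.5%. A match is a description of the letters, and it is not evidence that a factor was bound. The sterol element letters TCACNCCAC and the LXR element DR4 were searched too, and among the 16 LXR targets tested, the 13 with a window had neither, which says only that these letters were not in those windows. DR4 was found in 1 of 17 fatty acid genes (5.88%), against 0.234% of tested genes. The sterol letters were found in 1 of 17 fatty acid genes (5.88%) and 1 of 21 cholesterol genes (4.76%), against 1.44%. They were also found in 1 of 18 genes of amino acid transport and tRNA charging (5.56%).

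Receptors came first in the order of roles. NR1H2, which encodes LXRβ, had 61.1, 60.1 and 56.0 CPM with 1E5, 44.5, 45.6 and 41.2 CPM with GW3965 and 42.9, 37.1 and 40.3 CPM with DMSO. The ligand groups did not overlap, and the log2 difference was 0.43 ± 0.11 (SE, n = 3 against 3, adjusted p = 0.0083). NR1H3, which encodes LXRα, had 12.8, 10.4 and 13.7 CPM with 1E5 and 11.2, 14.3 and 12.9 CPM with GW3965, and these overlapped. Its difference of -0.06 ± 0.20 was not called (adjusted p = 0.85), while the 3 DMSO libraries lay lower, at 4.79, 7.18 and 7.96 CPM. Among the 13 receptor and coregulator genes tested, 3 were higher and 3 lower, or 46.2% called against 34.7% of all genes. TBL1X, a subunit of the corepressor complex, was higher by 0.61 ± 0.11, and RXRB, a retinoid X receptor, by 0.57 ± 0.12. NCOA2, a coactivator, was lower by 0.66 ± 0.17 on the log2 scale, and it was not called in a fit of the 6 libraries alone (adjusted p = 0.0593).

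Of 16 LXR targets tested, 7 were lower and 3 higher with 1E5 than with GW3965, or 62.5% called against 34.7% of all genes, with a median log2 difference of -0.27. In the fit without 1E5 replicate 2, 8 were lower and 2 higher, and the median was -0.69. ABCA1, the transporter that loads cholesterol onto lipid-poor apolipoprotein, lies at chr9:104781002-104928237 (GRCh38). It had 164.5, 240.4 and 165.1 CPM with GW3965, 11.2, 6.44 and 10.1 CPM with 1E5 and 5.72, 8.88 and 7.45 CPM with DMSO. All GW3965 libraries were far above the rest, and those of 1E5 and DMSO overlapped. The 1E5 against GW3965 difference was -4.36 ± 0.28 (adjusted p = 1.8e-06), with 4.69 for GW3965 against DMSO. MYLIP, a ubiquitin ligase that limits lipoprotein uptake, was also lower with 1E5 than with GW3965. It had 54.1, 58.2 and 52.1 CPM with GW3965, 18.5, 16.8 and 17.3 CPM with 1E5 and 15.8, 16.6 and 14.0 CPM with DMSO, with a ligand difference of -1.65 ± 0.11. All 3 MYLIP libraries with 1E5 lay above those with DMSO. Against DMSO, 1E5 stood at 0.33 for ABCA1 (adjusted p = 0.349) and 0.18 for MYLIP (adjusted p = 0.2145) on the log2 scale, and neither was called. Without 1E5 replicate 2 the ligand difference of ABCA1 was -4.15, and it then met the same-way term.

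ABCG1, a cholesterol exporter to HDL, was higher with both ligands than with DMSO. It had 42.3, 43.6 and 38.7 CPM with GW3965, 5.4, 8.17 and 4.41 CPM with 1E5 and 1.14, 1.54 and 0.815 CPM with DMSO. The 3 groups did not overlap. The ligands differed by -2.79 ± 0.26 (adjusted p = 1.7e-05), with 2.36 for 1E5 against DMSO and 5.15 for GW3965 against DMSO. The LXR targets that were higher with 1E5 than with GW3965 are named after their values were seen. PLTP, the phospholipid transfer protein, had 59.4, 94.9 and 78.0 CPM with 1E5 and 13.2, 31.2 and 19.1 CPM with GW3965, a difference of 1.87 ± 0.37. TTC39B and MLXIPL, which encodes the glucose-responsive lipogenic factor ChREBP, differed by 1.52 and 1.55, and MLXIPL was not called without 1E5 replicate 2 (0.85, adjusted p = 0.0707). APOE, APOC1, ABHD6, RARA, SMPDL3A and NR1H3 were not called, although RARA was (-0.76) without that library.

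LPCAT3, which puts polyunsaturated chains into phospholipids, was the LXR target with the smallest p in the ligand comparison. It lies at chr12:6976186-7018510. It had 164, 159 and 147 CPM with GW3965, 60.8, 58.9 and 54.5 CPM with DMSO and 15.7, 18.3 and 18.0 CPM with 1E5. Each of the 3 DMSO libraries lay between the ligand groups, which did not overlap with it. The ligand difference was -3.18 ± 0.11 (adjusted p = 4.5e-08), with 1.43 for GW3965 and -1.75 for 1E5 against DMSO. It was -3.22 without 1E5 replicate 2.

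SREBF1 and several of the fatty acid genes were opposed as well. SREBF1 had 470, 576 and 516 CPM with GW3965, 149, 257 and 185 CPM with DMSO and 47.1, 158 and 41.9 CPM with 1E5. 1E5 replicate 2 overlapped the DMSO libraries but not those of GW3965. Its difference between the ligands was -2.66 ± 0.44 (adjusted p = 0.00087), and -3.54 without 1E5 replicate 2. SCD, the stearoyl-CoA desaturase that makes oleate (chr10:100347124-100364834), had 21900, 25040 and 20480 CPM with GW3965. It had 6548, 11540 and 6645 CPM with DMSO and 529, 3298 and 594 CPM with 1E5. The 3 groups did not overlap, and 1E5 replicate 2 was again the highest of its group. The difference was -3.93 ± 0.64 (adjusted p = 0.00079) and -5.32 without that library.

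FASN, the fatty acid synthase (chr17:82078333-82098332), had 3100, 2883 and 2917 CPM with GW3965, 1437, 1479 and 1452 CPM with DMSO and 210, 403 and 179 CPM with 1E5. No group overlapped another, and the difference was -3.49 ± 0.26 (adjusted p = 4.1e-06), or -3.93 without 1E5 replicate 2. FADS2, the delta-6 desaturase of polyunsaturated fatty acids, had 1246, 1388 and 1236 CPM with GW3965, 731, 974 and 689 CPM with DMSO and 48.6, 86.4 and 53.9 CPM with 1E5. Its difference was -4.36 ± 0.27, of which -3.66 was 1E5 against DMSO and 0.69 GW3965 against DMSO. FADS1, the delta-5 desaturase, differed by -2.42 ± 0.16, with 222, 251 and 219 CPM in 1E5 against 1192, 1383 and 1139 CPM in GW3965. ACLY, which makes cytosolic acetyl-CoA from citrate, differed by -2.26 ± 0.12, and ACSS2, which makes it from acetate, by -2.41 ± 0.27. ACACA, acetyl-CoA carboxylase, differed by -2.18 ± 0.14 and was placed with 1E5 alone because its GW3965 fold over DMSO was 0.45.

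Of 21 genes of fatty acid synthesis and desaturation tested, 13 were lower with 1E5 and 0 higher (61.9% called against 34.7% of all genes). The median log2 difference was -1.58. The opposed pattern held 8 of them. The members not called included ME1, malic enzyme, and MID1IP1, an activator of acetyl-CoA carboxylase. ME1 had 145, 110 and 139 CPM with 1E5, 176, 173 and 150 CPM with GW3965 and 80.8, 74.1 and 67.5 CPM with DMSO, so both ligand groups lay above the vehicle. MID1IP1 had 26.5, 32.0 and 43.7 CPM with 1E5, 33.8, 39.2 and 38.9 CPM with GW3965 and 14.3, 21.7 and 16.1 CPM with DMSO. ACACB, the mitochondrial carboxylase isoform, differed by -0.01 ± 0.23 (adjusted p = 0.99).

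**Figure D2:**
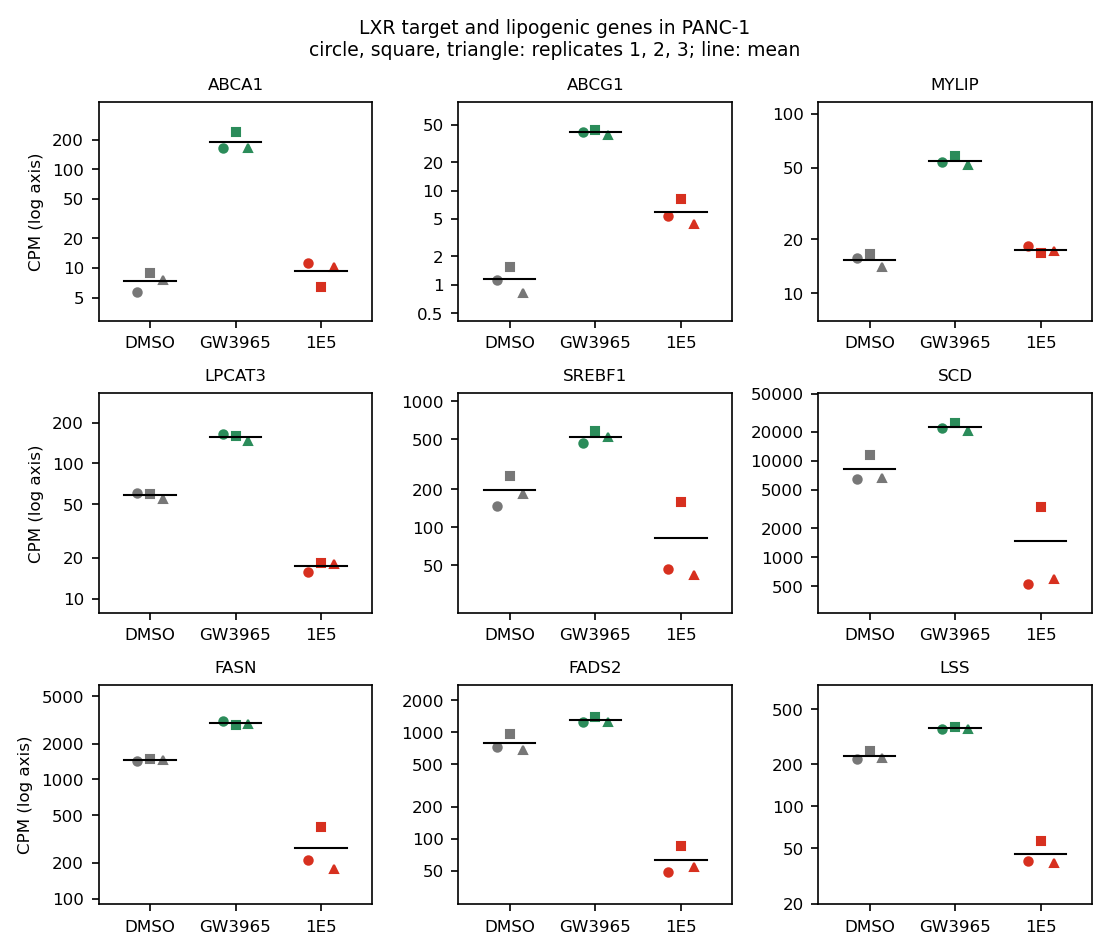
Level of 9 LXR target and lipid synthesis genes in each DMSO, GW3965 and 1E5 library of PANC-1, in CPM on log axes that differ between panels and do not start at 0; lines are means of 3 libraries. For ABCA1 and MYLIP the 1E5 libraries lie near DMSO, for ABCG1 above it, and for LPCAT3, SCD, FASN, FADS2 and LSS below it, with the DMSO libraries between the ligands. The square of 1E5 replicate 2 is the highest 1E5 point for SCD, SREBF1, FASN, FADS2, LSS and ABCG1, and by little for LPCAT3. It is the lowest for ABCA1 and MYLIP.

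Cholesterol synthesis and uptake genes were mostly lower with 1E5, and by the fold limit most of the lower genes were placed with 1E5 alone. That placement does not mean that GW3965 left them at the DMSO level. Across the list, the median log2 fold of GW3965 over DMSO was 0.34, with 1 member called. The list median relative to the DMSO mean was 0.41, 0.31 and 0.32 in the GW3965 libraries. In the DMSO libraries it was 0.04, 0.01 and -0.04. Of 27 tested, 19 were lower and 2 higher (77.8% called), with a median of -1.42, and 7 of the 19 were opposed while 12 were moved by 1E5 alone. LSS, lanosterol synthase, had 40.5, 56.3 and 39.4 CPM with 1E5, 220, 252 and 221 CPM with DMSO and 363, 373 and 360 CPM with GW3965, with no overlap between any groups. The ligands differed by -3.01 ± 0.14 (adjusted p = 3.0e-07). FDPS, farnesyl diphosphate synthase, had 53, 51 and 44.6 CPM with 1E5, 140, 133 and 125 CPM with DMSO and 224, 213 and 238 CPM with GW3965, a difference of -2.18 ± 0.12. ACAT2, the cytosolic thiolase that starts the pathway, had 17.3, 28.1 and 17.8 CPM with 1E5 and 197, 179 and 204 CPM with GW3965, a difference of -3.20 ± 0.18. Its GW3965 fold over DMSO was 0.37. TM7SF2, a sterol reductase, differed by -1.78 ± 0.18.

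INSIG1, which retains the SREBP complex in the ER, had 17.1, 130 and 20.6 CPM with 1E5 and 162, 168 and 142 CPM with GW3965, and it was not called (-1.5 ± 0.64, adjusted p = 0.0925). Its difference was -3.05, and was called, without 1E5 replicate 2. The genes higher with 1E5 were SCAP, the SREBP escort protein, by 0.49, and NPC1L1, a sterol transporter with at most 3.98 CPM in any library. Without that replicate, 23 members of the list were lower and the median was -1.89.

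A stricter view of opposition asked that all 3 DMSO libraries lie between the ligand groups. Among opposed genes, 34 did so with 1E5 low and 11 with 1E5 high. Among genes placed with 1E5 alone, 43 did so with 1E5 low and 35 with 1E5 high. The same order of libraries, called or not, was met by 117 of all genes with GW3965 high (0.631%) and by 88 with 1E5 high (0.475%). Of the 34, 30 were protein coding and 12 belonged to the LXR target, fatty acid or cholesterol lists (35.3%), which hold 61 of the 18544 genes tested (0.329%). Among those 12 were SCD, LPCAT3, ACSS2, FASN, FADS1, ACLY, MVD, FDPS, IDI1, FADS2 and LSS. Of the 105 opposed genes low in 1E5, 16 were in these lists (15.2%), and of the 128 high in 1E5, 0 were. The lists were chosen with results of these data known, so the shares describe the genes and carry no test.

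Others among the 34 are named after their values were seen. LPIN1, a phosphatidate phosphatase of triglyceride synthesis, had 39.9, 55.7 and 38.7 CPM with 1E5, 138, 126 and 129 CPM with DMSO and 262, 248 and 201 CPM with GW3965, a difference of -2.40 ± 0.16. SLC2A6, a hexose transporter family member, had 15.7, 11.7 and 14.2 CPM with 1E5, 56.9, 62.4 and 59.2 CPM with DMSO and 90.2, 102 and 88.9 CPM with GW3965, a difference of -2.75 ± 0.13. SCDP1 is a pseudogene of SCD, and its counts are uncertain because reads can be shared. Opposed genes that were highest with GW3965 by the rule for named genes also included SLCO4C1, an organic anion transporter. It had 22.6, 33.5 and 20.4 CPM with GW3965, 2.90, 0.488 and 1.93 CPM with 1E5 and 2.12, 9.09 and 2.52 CPM with DMSO, so 1E5 and DMSO overlapped.

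Opposed genes that were high in 1E5 were mostly of low abundance. GGT1, gamma-glutamyltransferase of glutathione breakdown and named after its values were seen, had 15.8, 10.0 and 12.1 CPM with 1E5, 3.26, 3.89 and 3.38 CPM with DMSO and 1.48, 2.93 and 2.33 CPM with GW3965. Its ligand difference was 2.49 ± 0.27 (adjusted p = 5.5e-05). CLDN3, a tight junction claudin, had 30.9, 26.4 and 26.0 CPM with 1E5, 14.4, 15.6 and 13.7 CPM with DMSO and 9.91, 11.8 and 9.10 CPM with GW3965, a difference of 1.44 ± 0.16. Its GW3965 fold over DMSO was -0.505, just past the limit of 0.5, and it was opposed in 11 of 16 other settings. PPP1R32 had 3.30, 10.2 and 2.82 CPM with 1E5 and 0.287, 0.158 and 0.286 CPM with GW3965. CHRNE, the epsilon subunit of the muscle acetylcholine receptor, had 178, 84 and 230 counts with 1E5 and 2, 0 and 0 with GW3965, so its placement against DMSO rests on a few counts. TMEFF1, ZNF90, TOMM6, KIAA0408, AC068580.4 and AC093525.2 were also named by the rule in this class. All but the last, an unnamed locus, lost the call under at least 1 other setting. In the main fit, none of TMEFF1, ZNF90, TOMM6, KIAA0408, AC068580.4 and AC093525.2 was called against DMSO with either ligand. AC126365.1, an unnamed locus high with GW3965, is uncertain too.

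Lipid use and storage moved less evenly, with 3 of 20 genes higher and 7 lower (50% called against 34.7% of all genes). CPT1A, the gate of mitochondrial fatty acid oxidation, had 160, 115 and 123 CPM with 1E5 and 321, 301 and 299 CPM with GW3965, a difference of -1.21 ± 0.13. HADHA, of the same pathway, was lower by 0.72 on the log2 scale. PLIN2, the lipid droplet coat protein, had 126, 77.9 and 94.9 CPM with 1E5, 30.0, 38.6 and 28.4 CPM with GW3965 and 21.4, 24.8 and 20.5 CPM with DMSO, a difference of 1.62 ± 0.18.

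Genes of the integrated stress response were higher with 1E5. Of 30 tested, 20 were higher and 0 lower (66.7% called against 34.7%), with a median of 0.87. Both ligands moved 13 of the 20 the same way from DMSO, 6 were moved by 1E5 alone and 0 were opposed. PPP1R15A, the phosphatase subunit that reverses eIF2α phosphorylation, had 261, 224 and 220 CPM with 1E5, 43.2, 39.9 and 32.4 CPM with GW3965 and 33.4, 29.6 and 22.1 CPM with DMSO. The 1E5 libraries were all far above both other groups, and the difference was 2.61 ± 0.18 (adjusted p = 2.8e-06). DDIT4, an inhibitor of mTORC1 signalling, had 932, 1236 and 1126 CPM against 280, 336 and 282 CPM, a difference of 1.87 ± 0.27. ERN1, the ER stress sensor IRE1, differed by 2.13 ± 0.21, ATF3, a stress transcription factor, by 2.27 ± 0.50, and GDF15, a secreted stress cytokine, by 1.59 ± 0.21.

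For some members the GW3965 libraries also lay above DMSO, although none of the 30 was called between GW3965 and DMSO. DDIT3, which encodes CHOP, had 156, 291 and 151 CPM with 1E5, 86.2, 82.3 and 80.7 CPM with GW3965 and 28.2, 57.4 and 26.6 CPM with DMSO, and no group overlapped another. Its difference between the ligands was 1.26 ± 0.33. ATF4 itself differed by 0.55 ± 0.17 (adjusted p = 0.025), with 1.16 for 1E5 and 0.61 for GW3965 against DMSO, and was not called without 1E5 replicate 2. ASNS, asparagine synthetase, differed by 0.78 ± 0.19, with 1.78 and 1.00 against DMSO. PHGDH, of serine synthesis, overlapped between the ligands. It had 133, 113 and 122 CPM with 1E5, 138, 130 and 119 CPM with GW3965 and 54.7, 80.8 and 45.4 CPM with DMSO (-0.07 ± 0.18). TRIB3, a pseudokinase target of ATF4 and CHOP, had 185, 77.8 and 163 CPM with 1E5 and 142, 145 and 108 CPM with GW3965 (0.11 ± 0.27).

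Amino acid transport and tRNA charging genes were higher as well, with 12 of 21 genes higher and 1 lower. That was 61.9% called against 34.7% of all genes, and the median was 0.60. SLC3A2, the heavy chain of several amino acid transporters, had 713, 715 and 592 CPM with 1E5, 177, 162 and 141 CPM with GW3965 and 126, 123 and 104 CPM with DMSO, a difference of 2.07 ± 0.14. AARS, the alanyl-tRNA synthetase, had 600, 717 and 666 CPM with 1E5, 348, 333 and 310 CPM with GW3965 and 246, 280 and 215 CPM with DMSO. It differed by 1.00 ± 0.11 (adjusted p = 7.4e-05), and 1E5, GW3965 and DMSO libraries did not overlap. SARS and WARS, the synthetases for serine and tryptophan, differed by 0.90 and 0.87. In the fit without 1E5 replicate 2, 16 of the 21 were higher.

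ER chaperones and the unfolded protein response split within the list. Of 22 tested, 9 were higher and 0 lower (40.9% called against 34.7%, and 17.4% higher among all genes). HSPA5, the chaperone BiP whose ERSE letters are printed above (gene at chr9:125234853-125241330), had 7633, 12180 and 7914 CPM with 1E5. It had 1368, 1314 and 1044 CPM with GW3965 and 804, 821 and 750 CPM with DMSO. No group overlapped another, and the difference was 2.90 ± 0.18 (adjusted p = 1.6e-06), or 2.65 without 1E5 replicate 2. SYVN1, SEL1L and HYOU1, of ER-associated degradation and chaperoning, differed by 0.83, 0.76 and 0.79. HERPUD1, of the same degradation route, had 91.0, 225 and 80.1 CPM with 1E5 against 42.5, 34.9 and 37.5 CPM with GW3965, a difference of 1.79 ± 0.33, or 1.16 without 1E5 replicate 2.

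The folding enzymes followed 1E5 replicate 2. HSP90B1, the ER chaperone GRP94, had 772, 2479 and 856 CPM with 1E5 and 918, 806 and 967 CPM with GW3965, and it was not called (0.61 ± 0.34, adjusted p = 0.194). PDIA4, a disulfide isomerase, had 277, 590 and 271 CPM with 1E5 and 567, 443 and 513 CPM with GW3965. Without 1E5 replicate 2, 9 members were higher and 5 lower, the 5 being PDIA3, PDIA4, PDIA6, CALR and CRELD2, and the median was 0.23 in place of 0.55. Heat shock proteins and their regulators had 3 of 18 higher and 7 lower (55.6% called against 34.7% of all genes). BAG3, a chaperone of the heat shock response, was lower by 0.83 on the log2 scale, DNAJA1 by 0.81 and HSPE1 by 0.72, while HSPA9, the mitochondrial HSP70, was higher by 0.65.

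NRF2 targets, the antioxidant genes, were higher for 9 of 22 and lower for 2 (50% called against 34.7%), with a median of 0.49. Without 1E5 replicate 2, 11 were higher, 2 lower and the median was 0.75. HMOX1, heme oxygenase, had 1770, 1155 and 1653 CPM with 1E5, 203, 212 and 168 CPM with GW3965 and 123, 125 and 108 CPM with DMSO, a difference of 2.97 ± 0.19 (adjusted p = 1.8e-06). FTH1 and FTL, the chains of the iron store ferritin, differed by 2.10 ± 0.18 and 2.02 ± 0.15, and OSGIN1 by 1.92 ± 0.19. NQO1, a textbook NRF2 target, had 223, 266 and 222 CPM with 1E5 against 255, 214 and 228 CPM with GW3965 (0.03 ± 0.13), and the groups overlapped. Lysosome and autophagy genes were higher for 7 of 22 and lower for 3 (45.5% called against 34.7% of all genes). CTSL, a lysosomal protease, differed by 1.47 ± 0.11, SQSTM1, the autophagy receptor p62, by 1.27 ± 0.14, and ULK1, a kinase that starts autophagy, by 0.89, while ATP6V0D1 of the proton pump was lower by 0.90.

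**Figure D3:**
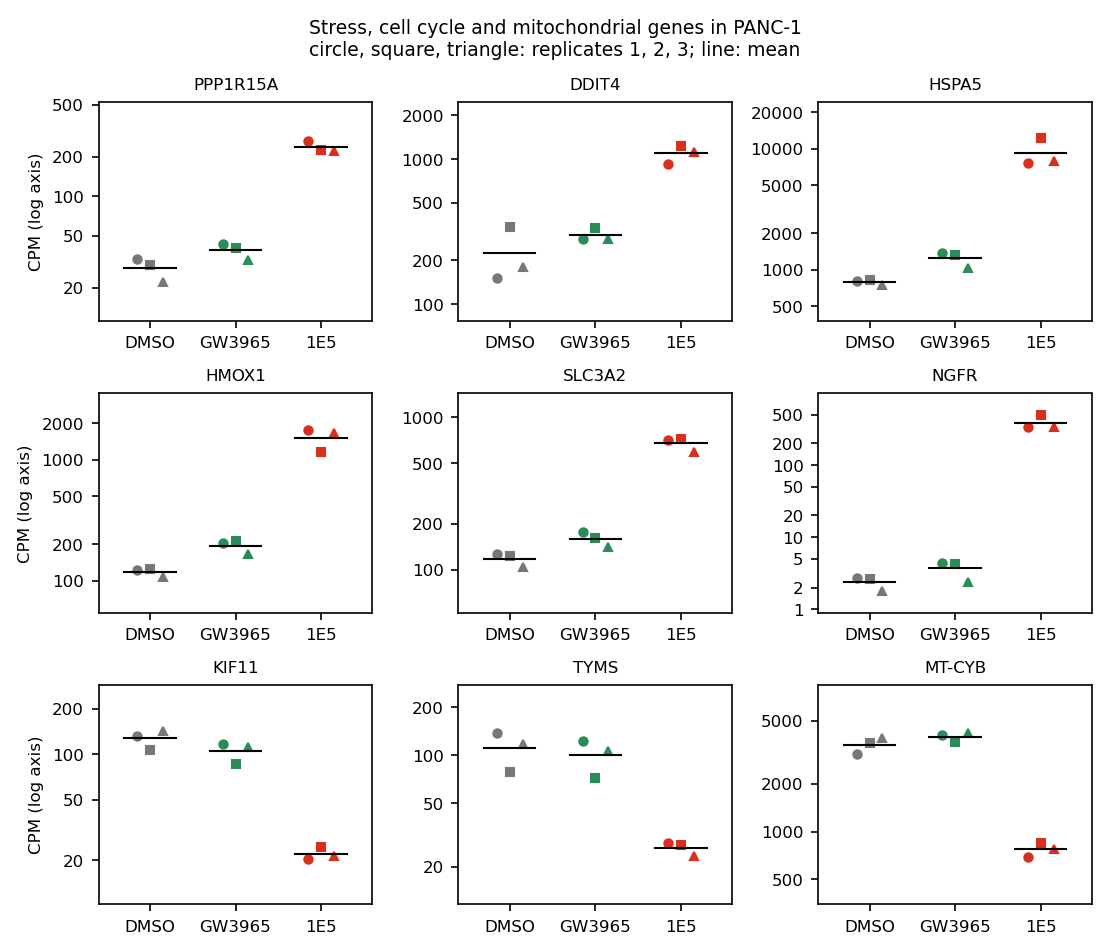
Level of 9 stress, cell cycle and mitochondrial genes in each DMSO, GW3965 and 1E5 library of PANC-1, in CPM on log axes that differ between panels and do not start at 0; lines are means of 3 libraries. The 1E5 libraries lie above all others for PPP1R15A, DDIT4, HSPA5, HMOX1, SLC3A2 and NGFR, and below all others for KIF11, TYMS and MT-CYB.

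Cell division genes were lower with 1E5. Of 25 mitosis genes 24 were lower and 0 higher (96.0% called, against 17.3% lower among all genes), with a median of -1.63, and CDC20 was the member not called. KIF11, the spindle kinesin whose CHR letters are printed above (gene at chr10:92593286-92655395), had 20.4, 24.6 and 21.3 CPM with 1E5, 117, 86.6 and 112 CPM with GW3965 and 133, 107 and 144 CPM with DMSO. GW3965 and DMSO overlapped and 1E5 lay below both, with a ligand difference of -2.25 ± 0.15 (adjusted p = 1.9e-06). BUB1B, of the spindle checkpoint, differed by -2.20 ± 0.23, CENPF, of the kinetochore, by -2.15 ± 0.23 and AURKA, a mitotic kinase, by -1.95 ± 0.21. Of 33 DNA replication genes 27 were lower and 0 higher (81.8% called), with a median of -1.28. TYMS, thymidylate synthase, had 28.2, 27.4 and 23.3 CPM with 1E5 and 123, 72.7 and 107 CPM with GW3965. GINS1 and MCM10, of the replication helicase and its loading, differed by -2.46 ± 0.21 and -2.90 ± 0.26, and TK1, thymidine kinase, by -2.25 ± 0.26.

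Most transcripts of mitochondrially encoded proteins were lower, and most ribosomal protein transcripts higher, with 1E5. Of 13 mitochondrial protein genes 11 were lower and 0 higher (84.6% called against 34.7% of all genes), with a median of -1.29. MT-CYB, of respiratory complex III, had 693, 851 and 776 CPM with 1E5, 4059, 3668 and 4217 CPM with GW3965 and 3103, 3626 and 3902 CPM with DMSO, a difference of -2.36 ± 0.13. MT-ND4, of complex I, had 3663, 13520 and 6278 CPM with 1E5 and was not called, and 1E5 replicate 2 lay above the GW3965 libraries. Without that replicate all 13 were lower, with a median of -1.84. Both mitochondrial ribosomal RNA genes were higher with 1E5, and of the mitochondrial tRNA genes 5 were higher, 10 lower and 7 not called. Of 20 ribosomal protein genes 18 were higher and 0 lower (90.0% called), with a median of 0.67, led by RPL18 (1.02) and RPS18 (1.01), and 11 were higher in a fit of the 6 libraries alone. Reads of ribosomal protein genes can be shared with their pseudogenes, so these values are uncertain, and their median was 0.46 without 1E5 replicate 2.

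**Figure D4:**
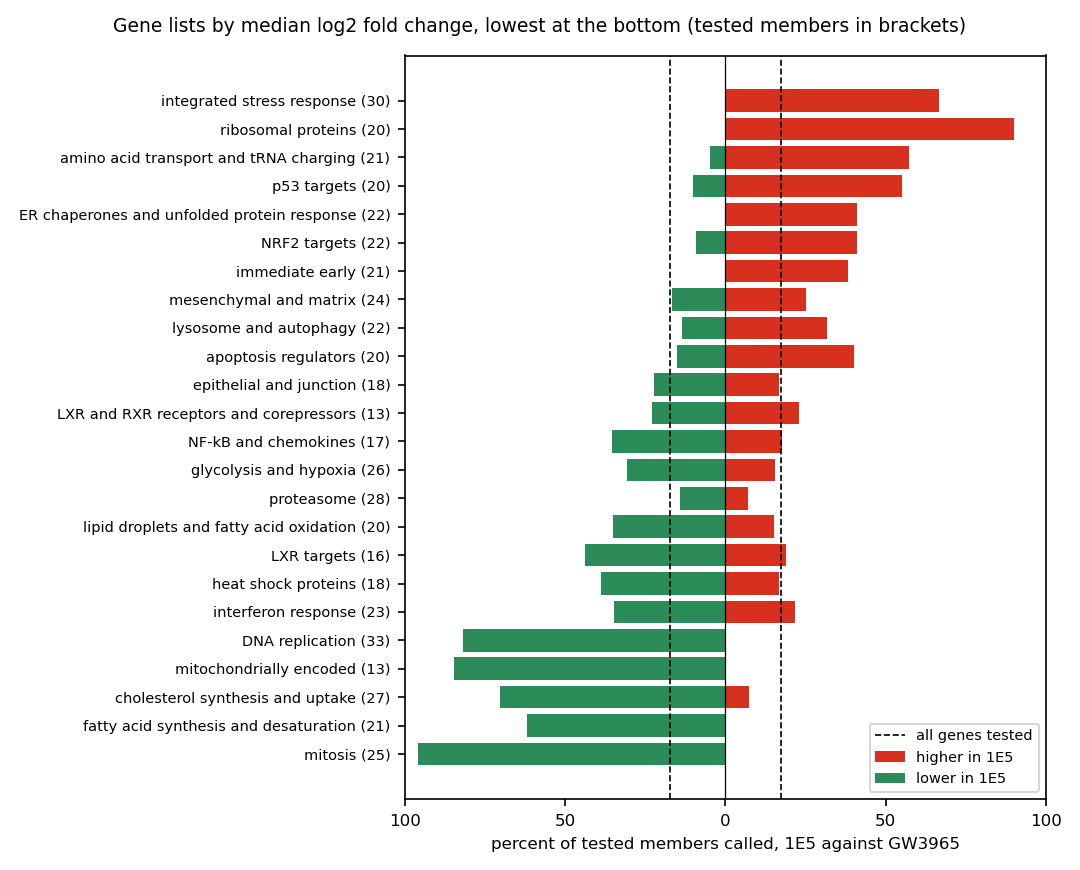
Share of tested members of each gene list that was called higher (red, to the right) or lower (green, to the left) with 1E5 than with GW3965, in percent, with dashed lines at the share over all 18544 genes tested (17.4% and 17.3%). Lists are ordered by median log2 difference, from mitosis (24 of 25 lower) at the bottom to the integrated stress response (20 of 30 higher) at the top.

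Signalling and survival genes moved in both directions. Over all genes tested, 34.7% were called, 17.4% higher and 17.3% lower. Among p53 targets 11 of 20 were higher and 2 lower (65.0% called), led by GADD45A, a growth arrest gene, at 1.66 ± 0.19 and including FDXR and TNFRSF10B, a death receptor, at 0.89 and 0.76, and 7 were higher without GW3965 replicate 1 or without replicate 3. Among apoptosis regulators 8 of 20 were higher and 3 lower (55.0% called), with 4 higher without GW3965 replicate 1 and 5 without replicate 3. BIRC3, an inhibitor of apoptosis and NF-kB target, differed by -2.04 ± 0.18, BID by -0.69 and the antiapoptotic BCL2L1 by 0.97 ± 0.12. Among NF-kB targets and chemokines 3 of 17 were higher and 6 lower (52.9% called), with 5 higher without 1E5 replicate 2. CCL2, the monocyte chemokine, had 9.53, 5.86 and 8.43 CPM with 1E5, 138, 64.8 and 85.6 CPM with GW3965 and 139, 53.3 and 82.1 CPM with DMSO, a difference of -3.60 ± 0.39. LIF and IL32, both cytokines, were higher by 0.81 and 1.5. Among interferon genes 5 of 23 were higher and 8 lower (56.5% called), with IFIT1 at -1.78, OAS3 at -1.49 and the RNA sensor DDX58 at -1.05, while the factor IRF7 was at 1.16, and 4 were lower without 1E5 replicate 3 or without GW3965 replicate 2. Among immediate early genes 8 of 21 were higher and 0 lower (38.1% called, near the share over all genes). The MAP kinase phosphatases DUSP5 and DUSP1 were at 2.47 ± 0.18 and 1.69 ± 0.16. In this list 5 were higher without GW3965 replicate 2 and 4 without replicate 3.

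Glycolysis and hypoxia genes had 4 of 26 higher and 8 lower (46.2% called against 34.7% of all genes). The list rested in part on 1E5 replicate 2. Its median log2 level relative to the DMSO mean was -0.67, 0.24 and -0.41 in 1E5 replicates 1, 2 and 3. Without 1E5 replicate 2, 3 were higher and 12 lower, and the median difference was -0.37 in place of -0.13. SLC2A1, the glucose transporter GLUT1, had 163, 257 and 150 CPM with 1E5 and 36, 37.6 and 28.6 CPM with GW3965, a difference of 2.48 ± 0.24. LDHA, lactate dehydrogenase, had 144, 232 and 117 CPM with 1E5 and 683, 662 and 892 CPM with GW3965, a difference of -2.18 ± 0.23. The glycolytic enzymes ENO1 and PGAM1 differed by -1.02 and -0.96. Proteasome genes were called at 21.4%, below the share over all genes, with 2 of 28 higher and 4 lower. The 2 higher members were NFE2L1 and PSMC4. NFE2L1, the transcription factor of proteasome genes and not a subunit, was higher by 0.69. PSMC4, a subunit, was higher by 0.58 and lost its call in 4 other settings.

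Epithelial genes had 3 of 18 higher and 4 lower (38.9% called), and mesenchymal and matrix genes 6 of 24 higher and 4 lower (41.7% called), both near the share over all genes. With 1E5 replicate 2 left out, 5 epithelial genes were higher and 7 mesenchymal genes lower. KRT8 had 333, 334 and 280 CPM with 1E5, 1769, 1259 and 1450 CPM with GW3965 and 2555, 1759 and 2023 CPM with DMSO, a difference of -2.24 ± 0.17. KRT19 and KRT18 differed by -1.93 and -1.5. TGFB2, a growth factor of the TGF-beta family, had 14.8, 8.3 and 13.0 CPM with 1E5 and 62.8, 62.4 and 49.7 CPM with GW3965, a difference of -2.28 ± 0.19. SPARC, a matrix protein, had 3.54, 24.9 and 6.11 CPM with 1E5 and 66.4, 167 and 178 CPM with GW3965, and differed by -4.82 without 1E5 replicate 2. MMP1, a collagenase, had 4.45, 3.29 and 4.22 CPM with 1E5 and at most 0.612 CPM with GW3965.

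The largest differences by the rule for named genes were between near-zero and clear expression, where counts say more than a fitted fold. NGFR, the low-affinity neurotrophin receptor (chr17:49495293-49515017), had 339, 490 and 333 CPM with 1E5, 4.42, 4.28 and 2.37 CPM with GW3965 and 2.71, 2.6 and 1.79 CPM with DMSO. Its difference was 6.71 ± 0.28 (adjusted p = 2.2e-07). SLC30A2, a zinc transporter, had 851, 148 and 570 counts with 1E5 and 4, 0 and 0 with GW3965. ATP6V0D2, a proton pump subunit, had 365, 108 and 303 counts against 7, 10 and 0. KCP, a secreted BMP modulator, had 159, 59 and 144 counts against 0, 3 and 0. CARMIL3 had 35, 198 and 59 counts against 0, 0 and 6 and was not called by DESeq2, and AP000275.2, an unnamed locus, lost its call in several settings.

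On the lower side, PCDH20, a protocadherin, had 0 counts in all 3 libraries with 1E5 and 346, 367 and 318 with GW3965. Set against 3 counts over the 1E5 group, or 0.0408 CPM, it was at least 341-fold lower, a bound that covers counting error only. CBLN2, a secreted synaptic organiser, had 0, 8 and 0 counts against 271, 327 and 121, and COL2A1, a collagen chain, 0, 5 and 0 against 87, 203 and 147. PCDH18 had 11, 19 and 20 counts against 163, 900 and 976. MUC16, the mucin that carries CA125, had 4, 57 and 18 counts against 535, 889 and 591. FAM111B, a protease-like gene of dividing cells, had 1.15, 0.488 and 0.890 CPM against 22.9, 14.8 and 25.1 CPM, a difference of -4.61 ± 0.32. The loci AC007240.1 and IPO5P1, a pseudogene, were also in this class and are uncertain.

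Genes moved by 1E5 alone were represented on the higher side by DUSP15, a phosphatase, with 97.9, 67.0 and 74.9 CPM against 3.93, 5.42 and 4.20 CPM with GW3965 and 5.67, 4.58 and 3.80 CPM with DMSO (4.14 ± 0.21). PDE2A, a cyclic nucleotide phosphodiesterase, differed by 4.87 ± 0.53, SULT1C2, a sulfotransferase, by 4.68 ± 0.84, NPTX1, a neuronal pentraxin, by 4.67 ± 0.68 and HES7, a Notch pathway repressor, by 4.05 ± 0.51. The last 2 varied most within 1E5, with NPTX1 at 8.50, 62.6 and 31.9 CPM and HES7 at 14.8, 52.6 and 22.0 CPM, and without 1E5 replicate 2 they differed by 3.92 and 3.36. Of the 9 genes that GW3965 moved from DMSO, S100P, a calcium-binding protein, was raised further by 1E5. It had 42.5, 44.0 and 48.1 CPM with 1E5, 4.46, 5.23 and 3.27 CPM with GW3965 and 0.790, 1.46 and 0.815 CPM with DMSO, and no group overlapped another. The ligands differed by 3.38 ± 0.25 (adjusted p = 4.1e-06).

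Set out by library, the lists showed where 1E5 replicate 2 departed. The median log2 level relative to the DMSO mean was -2.30, -1.30 and -2.28 for mitosis in 1E5 replicates 1, 2 and 3, and -1.37, -0.51 and -1.41 for cholesterol synthesis. For the integrated stress response it was 1.69, 1.36 and 1.57 with 1E5 and 0.64, 0.79 and 0.44 with GW3965. For LXR targets it was 0.93, 1.06 and 0.99 with GW3965 and 0.31, 0.27 and 0.16 with 1E5, so the median member was above the DMSO mean with both ligands. Members went both ways with 1E5, 6 called higher and 4 lower than with DMSO, and the summed level of the list was below DMSO. That sum was 1221, 4731 and 1318 CPM with 1E5 against 8617, 13990 and 8859 CPM with DMSO. SCD made up most of the sum with DMSO, at 6548, 11540 and 6645 CPM, and had 529, 3298 and 594 CPM with 1E5. FASN had 1437, 1479 and 1452 CPM with DMSO and 210, 403 and 179 CPM with 1E5. The sum therefore follows SCD and FASN and does not describe the typical member. Mitochondrially encoded genes were at -2.33, -1.09 and -1.62 with 1E5, and ER chaperones at 0.25, 0.82 and 0.23. What sets 1E5 replicate 2 apart was not tested.

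**Figure D5:**
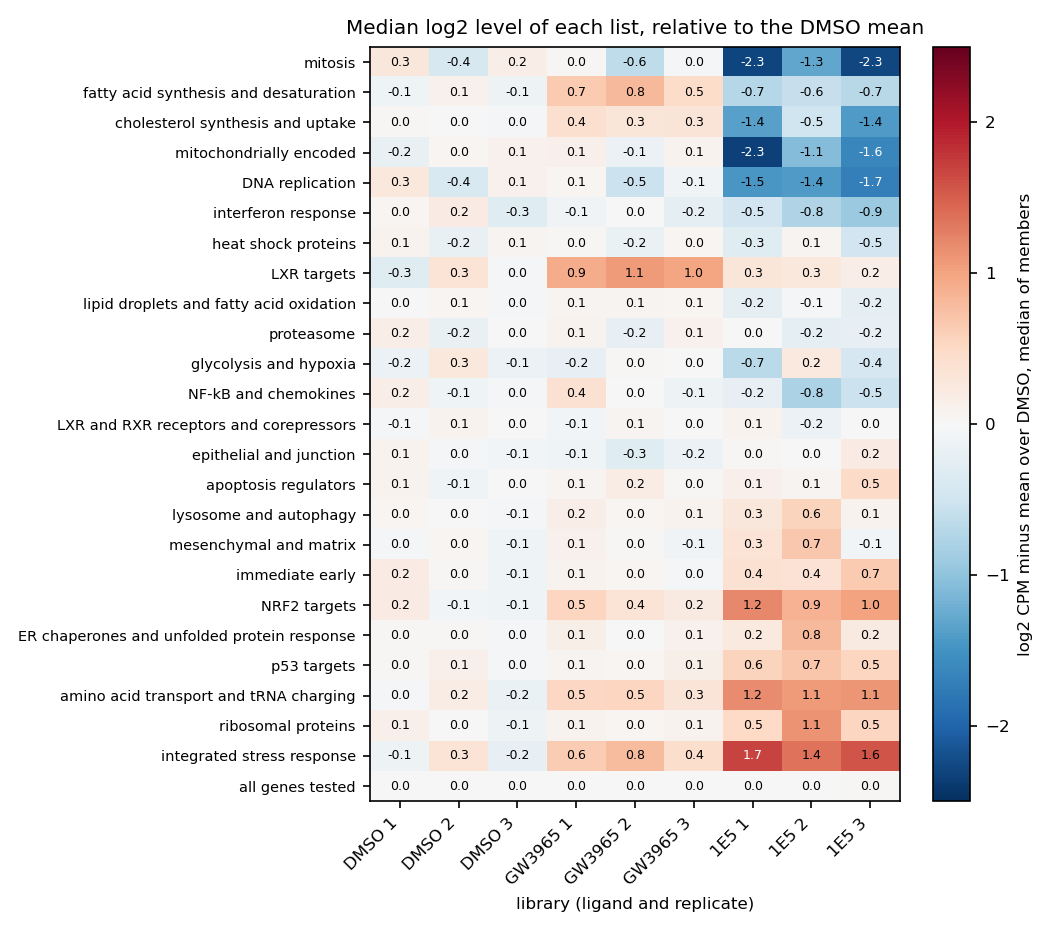
Median log2 CPM of each gene list relative to the mean of the DMSO libraries, for the 3 libraries each of DMSO, GW3965 and 1E5 in PANC-1, as a colour scale with the value in each cell. 1E5 replicates 1 and 3 are alike for mitosis (-2.30 and -2.28) while replicate 2 is at -1.30, and the fatty acid and cholesterol lists are above DMSO with GW3965 and below it with 1E5.

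The same ligand difference was set against that of the other lines in a fit of all 36 libraries and 22132 genes. Of the 9 genes named in every comparison, 5 differed between PANC-1 and MIA PaCa-2 and 5 between PANC-1 and BxPC-3 (adjusted p under 0.05), where 26.2% and 15.9% of all genes did. LPCAT3 had a ligand difference of -3.19 in PANC-1, -2.28 in MIA PaCa-2 and -1.02 in BxPC-3, and the other lines each differed from PANC-1.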

How the data were processed

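Whole-number counts per gene were deposited by the authors for 36 libraries, and 12 of them, from PANC-1, entered the main fit. The submitters' processing notes name StringTie 1.3.1c, HISAT2 2.0.2, Trim Galore 0.4.4 and SAMtools 1.3, without roles, and the build GRCh38. The libraries were made from 500 ng of total RNA with a stranded kit, per the labels' protocols. Neither the annotation nor the strand setting of the counting is given in the sources used here. Overlapping genes, pseudogenes and read-through loci are therefore uncertain. Of 58658 lines, 407 transcripts and 8 loci were left out, at most 9.36e-05% of the counts of a PANC-1 library. Symbols and coordinates for 57980 of the 58243 genes kept are from GENCODE 29 (GRCh38).

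Counts were fitted as deposited with edgeR 4.0.16 (R 4.3.3), TMM scaling, 1 mean per ligand and filterByExpr at its defaults (minimum count 10, total 15). The fit of all 12 libraries (DMSO, GW3965, 1E5, 3A4) shares 1 estimate of the spread. The quasi-likelihood test was two-sided, with Benjamini-Hochberg adjustment over all genes tested and a threshold of 0.05. CPM is per 1e+06 of the TMM-scaled total, and SE is the size of the log2 difference over the root of F. The script was tested on simulated data. Alternatives used RLE scaling, no filter, limma-voom (limma 3.58.1), DESeq2 1.42.0, the 6 compared or all 36 libraries, a replicate block, other fold limits and each library left out.

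The genes named in every comparison were ABCA1, ABCG1, MYLIP, LPCAT3, SREBF1, SCD, FASN, NR1H2 and NR1H3. To these were added the 8 highest and 8 lowest differences and the 8 opposed and 6 1E5-alone genes per direction of largest size, all with non-overlapping groups and a mean of 2 CPM or more, and up to 4 called members per list with the smallest p. Other names are marked or are list members given as examples. The comparison, the lists and the rule were chosen with earlier results of these data known.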

Additional observations from a re-analysis of the deposited data

Results flagged for a closer look

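The difference between 1E5 and GW3965 (log2) was itself compared between lines for the 9 genes named in every comparison, with an interaction term in edgeR over 22132 genes, and 10 of these differences passed an adjusted p of 0.05. Against MIA PaCa-2, PANC-1 minus MIA PaCa-2 was -1.6 for ABCA1 (adjusted p 0.00821), -1.48 for ABCG1 (0.0268), -0.917 for LPCAT3 (0.00283), -2.06 for SCD (0.0144) and -0.947 for FASN (0.0189). Against BxPC-3, PANC-1 minus BxPC-3 was -2.66 for ABCG1 (adjusted p 0.000435), -2.17 for LPCAT3 (7.67e-08), -1.94 for SCD (0.0318), -1.91 for FASN (4e-05) and 0.592 for NR1H2 (0.0251). The differences within each line were, for PANC-1, MIA PaCa-2 and BxPC-3 in that order, -4.37, -2.77 and -3.12 for ABCA1, -2.81, -1.33 and -0.15 for ABCG1, -3.96, -1.90 and -2.02 for SCD, and -3.51, -2.57 and -1.60 for FASN. NR1H2 was at 0.42 in PANC-1, 0.68 in MIA PaCa-2 and -0.17 in BxPC-3, the last not called. Over all genes, 26.2% differed between PANC-1 and MIA PaCa-2 and 15.9% between PANC-1 and BxPC-3. The lines also differ in medium between BxPC-3 and the others, and line and medium cannot be told apart there.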

How the results depend on the processing

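For 1E5 against GW3965, the count of called genes stayed within 1.5 times of 6439 in every setting run, and without 1 library at a time it ranged from 4773 to 6983 (2262 to 3398 higher, 2511 to 3585 lower). Against DMSO the 1E5 count ranged from 5658 to 7789 without 1 library and was 7929 with DESeq2. The GW3965 count against DMSO, 9 in the report, was 96 with DESeq2, 19 with all 36 libraries and 5 without the 3A4 libraries, a setting added after seeing the data. It ranged from 4 to 35 without 1 library, with 4 without GW3965 replicate 1, 32 without 1E5 replicate 2 and 35 without DMSO replicate 2. The opposed count of 233 ranged from 204 to 272 without 1 library. It was 591 at a fold limit of 0.25 and 79 at 1, and 189 when it was defined by all 3 DMSO libraries lying between the ligands in place of a fold limit. Those 189 were largely other genes than the 233. By the fold limit of 0.5, 11 higher and 34 lower in 1E5 were opposed. Another 35 and 43 were moved by 1E5 alone, and 34 and 32 met no term. At a limit of 1, 1E5 alone held 2824 genes and otherwise 3792 to 5010 without 1 library. The same-way count was 1057 at 0.25, 78 at 1, and 214 (without GW3965 replicate 2) to 509 (without DMSO replicate 2) without 1 library. GW3965 alone held 33 without the filter, 31 at 1, and 30 (without 1E5 replicate 3) to 62 without 1 library, with 33 without GW3965 replicate 3. Genes that met no term numbered 631 without the filter, 318 at 0.25, 3427 at 1, and 430 to 1343 without 1 library, with 684 without 1E5 replicate 3 and 559, 539 and 430 without GW3965 replicates 1, 2 and 3. These limits move by construction, and the other causes were not tested. NR1H3 (-0.06) ranged from -0.157 to 0.0498 without 1 library and was above 0 without 1E5 replicate 2 (0.0498) and without GW3965 replicate 2 (0.02), all uncalled. The deviations of same-numbered libraries correlated at 0.113, 0.0346 and 0.0396 for 1E5 with GW3965, 0.0839, 0.0462 and 0.00122 for 1E5 with DMSO, and 0.157, 0.135 and 0.0959 for GW3965 with DMSO. Not every value passed 0.1, so the numbers were not taken as pairs. As a hint from the data, each GW3965 library correlated best with the DMSO library of its own number, which 1E5 libraries did not all do. Each GW3965 and each DMSO library also correlated best with the 3A4 library of its own number. Those values were 0.0613, 0.103 and 0.0585 for GW3965 and 0.0311, 0.0779 and 0.0716 for DMSO. Whether libraries of 1 number share a batch was not tested. With the replicate block, 6791 genes were called (3377 higher, 3414 lower), 7604 for 1E5 and 10 for GW3965 against DMSO, with 226 opposed, 4932 by 1E5 alone, 53 by GW3965 alone, 349 the same way and 1231 without a term. RLE scaling moved the median difference from 0.01 to 0.02 and the higher share of calls from 50.2% to 50.9%. The fit of the 6 compared libraries gives no value for the DMSO-based results. Of the 130 single-gene results, 118 kept direction and side of the threshold in every setting run, and 11 lost the call in some (AP000275.2, AC007240.1, TMEFF1, ZNF90, TOMM6, KIAA0408, AC068580.4, CARMIL3, FOSL1, NCOA2 and PSMC4). Of 58 counts per list and direction, 35 stayed within 1.5 times. Placement by pattern is not part of these counts and was less stable for some genes. CLDN3 stayed opposed in 11 of 16 settings and KRT8 kept the same-way term in 9 of 16. Where groups held few counts, folds depend on the fit, and with 3 libraries a group small folds of GW3965 over DMSO were seldom called.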
